A study of Homo sapiens with 18 samples.

Results

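The 36 genes described here code for the lysosome and for the vacuolar ATPase (V-ATPase), the proton pump that acidifies it, and they were followed in the suspension line THP-1, established from a human acute monocytic leukaemia. They were chosen by symbol: every row of the count table whose Ensembl identifier maps to a listed symbol was taken. All 36 were found among 63677 genes in the table, and 35 of them were among the 16678 genes with enough counts to be tested. The remaining member, ATP6V0C, had 0 counts in all libraries but 1, where it had 1 count.

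The study lowered TRAFD1, a regulator of innate immune signalling, with 1 siRNA sequence and asked which genes followed. The 3 conditions, all in THP-1, were an siRNA against TRAFD1 (KD), a non-targeting scrambled siRNA (SCR) and no siRNA (WT), with the siRNAs at 25 nM. For WT, the series text names untreated cells whereas the sample protocol names transfection reagent alone, so effects of reagent and siRNA cannot be told apart in a difference from WT. At 72 h after transfection each condition received lipopolysaccharide (LPS, a bacterial cell wall component) at 10 ng/ml or medium for 4 h, which gave 6 groups of 3 libraries (replicates 1 to 3 for medium, 4 to 6 for LPS). The labels speak of triplicates grown for each condition and do not tell how far the 3 were handled apart, so p-values below measure the spread between these samples. The RNA was read in bulk, where fewer cells with a transcript and less of it per cell cannot be told apart.

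Lysosomes break down material from endocytosis, phagocytosis and autophagy, and monocytic cells are rich in them. The V-ATPase has a membrane-bound V0 sector that carries protons and a cytosolic V1 sector that hydrolyses ATP, and the acid it makes activates cathepsins, glycosidases and lipases inside. The transcription factors TFEB, TFE3 and MITF are held in the cytosol when nutrients are plentiful and can drive lysosomal genes from nuclear binding to E-box motifs, and SQSTM1 (p62) is an autophagy receptor that carries ubiquitinated cargo into autophagosomes and is itself broken down in lysosomes.

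The E-box motif CACGTG, the core of the sites that these 3 factors bind, was searched on both strands of 1 promoter per gene, from 250 bases before to 50 bases after the canonical transcript start of GENCODE v44lift37 on GRCh37. It lay in 12 of the 36 member promoters (33.3%), namely those of LAMP1, CD63, CTSA, CTSB, CTSD, GAA, HEXA, MCOLN1, ATP6V0B, ATP6V0D1, ATP6V1C1 and ATP6V1H, against 8.8% of 19207 protein-coding promoters, and 7 members had 2 or more matches. The promoters below were chosen after expression values had been seen. LAMP1 (chr13:113951354-113951563, plus strand) is shown as the member with the most matches, 6. GAA (chr17:78075280-78075379, plus strand) and MCOLN1 (chr19:7587450-7587509, plus strand) are shown as members with 2 matches each. CTSD (chr11:1785158-1785257, minus strand) is shown as a member with a match that was lower in KD than in WT. SQSTM1 (chr5:179247805-179247904, plus strand) is shown as the member with the largest LPS response in WT and SCR, and it had no match. All run 5′ to 3′ on the gene's strand, and capitals mark CACGTG.
LAMP1: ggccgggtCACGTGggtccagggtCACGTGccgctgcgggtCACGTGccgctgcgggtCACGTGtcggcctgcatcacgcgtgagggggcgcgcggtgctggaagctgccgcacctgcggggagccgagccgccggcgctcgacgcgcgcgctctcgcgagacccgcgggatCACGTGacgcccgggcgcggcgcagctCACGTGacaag
GAA: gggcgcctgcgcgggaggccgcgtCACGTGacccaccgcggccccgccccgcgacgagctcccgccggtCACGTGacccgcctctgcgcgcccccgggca
MCOLN1: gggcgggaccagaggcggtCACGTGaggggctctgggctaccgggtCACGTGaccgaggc
CTSD: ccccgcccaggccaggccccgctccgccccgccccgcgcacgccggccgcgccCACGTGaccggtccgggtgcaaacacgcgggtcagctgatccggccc
SQSTM1: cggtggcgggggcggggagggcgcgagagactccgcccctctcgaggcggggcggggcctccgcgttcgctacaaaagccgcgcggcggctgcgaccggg
The letters are a description of these windows and were not tested as binding sites. Values for members with and without the motif are given with each comparison below.

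The libraries held 8206023 to 22344279 counts, and levels are given as CPM, in which each gene's counts are scaled to the same library total with edgeR's TMM factors. A count of 0 allows up to 3 counts, which is 0.134 to 0.366 CPM, a limit that covers counting error only. The monocytic markers FCER1G (270 to 435 CPM), TYROBP (226 to 328 CPM), SPI1, CD14, CD33, LYZ, ITGAM and CSF1R were present in all 18 libraries and MPO was low (0.156 to 2.36 CPM), while HBB had no count and CD3E and CD3D at most 0.0889 CPM. COL1A1 (0.604 to 2.94 CPM), a fibroblast collagen, had low counts throughout. Of the monocytic markers, CD14 was higher without LPS in SCR (1.14, SE 0.20, edgeR adjusted p 0.00311) and KD (0.72, SE 0.20, edgeR adjusted p 0.0232) than in WT, as was FCER1G (0.45 and 0.35, edgeR adjusted p 0.0112 and 0.0218). CD14 fell with LPS in WT, SCR and KD (-0.74, -1.53 and -1.07), and CD33 in KD (-0.50, edgeR adjusted p 0.0137). The part of these shifts in the results was not tested. Without LPS, the KD libraries held less TRAFD1 than SCR (log2 fold change -1.45, SE 0.23, edgeR adjusted p 0.0277), and with LPS the difference was -0.65 (SE 0.22, edgeR adjusted p 0.262). Against WT, TRAFD1 in KD was -1.23 without LPS (SE 0.23, edgeR adjusted p 0.00156) but -0.23 with LPS (SE 0.23, edgeR adjusted p 0.563), where the groups overlapped, and it rose with LPS in KD (0.73, SE 0.23, edgeR adjusted p 0.0456). TNF and IL1B rose with LPS in all 3 conditions, as the LPS labels would have it, and TNF without LPS was already 43.3 CPM in SCR and 43.2 CPM in KD against 15.9 CPM in WT. Mitochondrial transcripts took 3.19% to 4.86% of counts without LPS and 3.72% to 5.20% with it, and 3.87% to 4.86% in KD without LPS against 3.19% to 3.37% in WT; their part in the results was not tested.

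Together the members took 0.732% to 0.901% of the counts of a library. QuantSeq reads 1 fragment per transcript from the 3′ end, so levels of different genes need no length correction. Reads were counted only near the annotated end of each gene. Transcripts that end elsewhere, or in a window shared with another gene, can therefore be undercounted. The order of genes given here is one of counted reads, and its match to transcript abundance was not tested. The median of the mean levels was 78.1 CPM over the 35 tested members and 11.1 CPM over all genes tested. CD63, a tetraspanin of late endosomes and lysosomes, had a mean of 2815 CPM over the 18 libraries (2267 to 3310). It had the highest level of the members and ranked 31 of 16678. It was followed by the sphingolipid activator precursor PSAP (754 CPM), the V1 subunit ATP6V1B2 (505 CPM), the lysosomal membrane protein LAMP2 (461 CPM), SQSTM1 (427 CPM), the proteolipid subunit ATP6V0B (416 CPM) and LAMP1 (406 CPM). The ranges of the last 5 overlapped one another.

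**Figure D1:**
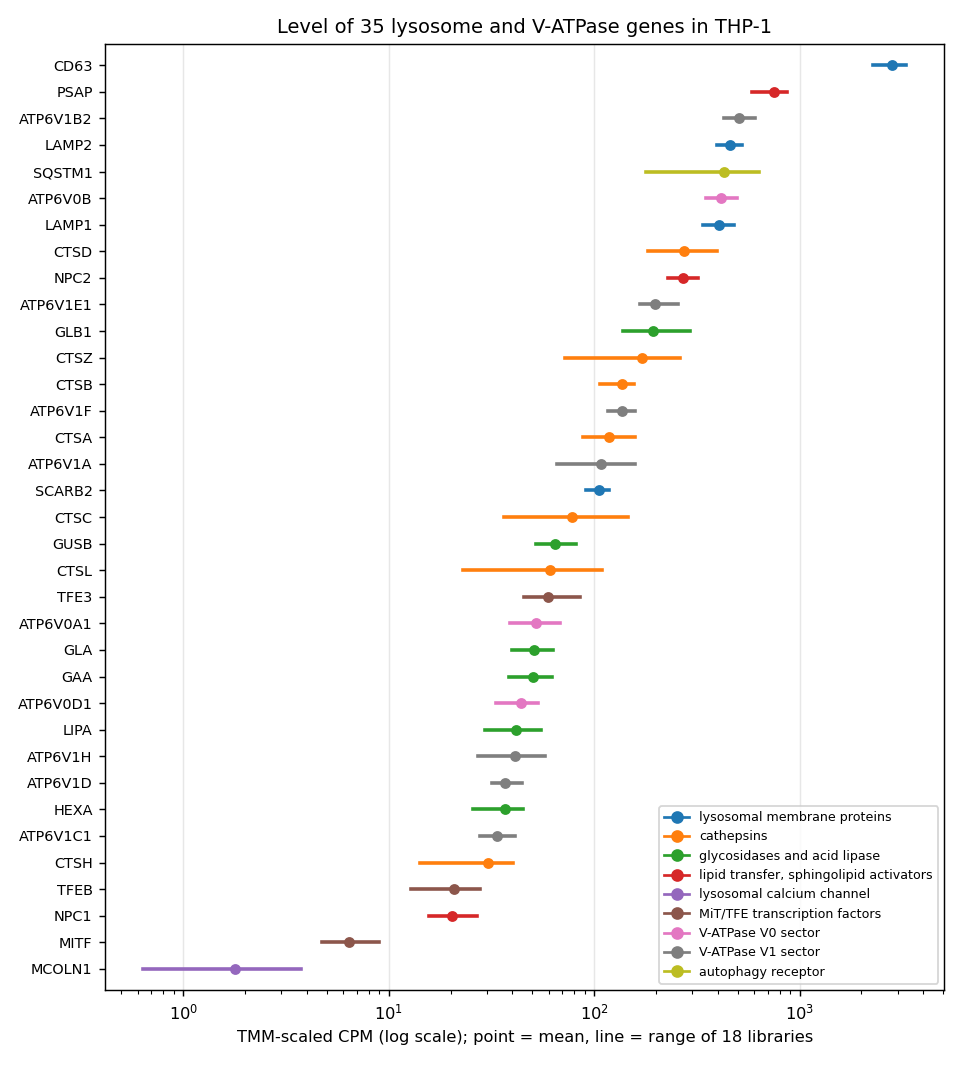
Level of the 35 tested members, one row per gene in order of the mean. The horizontal axis is TMM-scaled CPM on a log scale, points are means over 18 libraries, lines run from the lowest to the highest library, and colours give the role; CD63 stands highest at 2815 CPM, MCOLN1 lowest at 1.78 CPM, and the line of SQSTM1 is wider than those of its neighbours.

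Among the soluble enzymes, the aspartic protease CTSD led the cathepsins (274 CPM) and CTSH, an aminopeptidase, was last of the 7 (30.5 CPM). GLB1, the lysosomal beta-galactosidase, led the glycosidases (194 CPM). The transcription factors had lower levels, with TFE3 at 59.9 CPM, TFEB at 20.9 CPM and MITF at 6.43 CPM. MCOLN1, the calcium channel TRPML1, had the lowest level of the tested members (1.78 CPM). It had 7 to 49 counts per library, so its differences are the least precise. Part of its counted window overlaps other gene models on the same strand, as given below, so the level of MCOLN1 may be too low. The widest ratio of the highest to the lowest library belonged to MCOLN1 (5.84), followed by CTSL (4.76), CTSC (4.01), CTSZ (3.65) and SQSTM1 (3.55), and the narrowest to SCARB2 (1.30), the receptor that carries glucocerebrosidase to the lysosome.

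Several of these counts may be shared with neighbours. The authors counted reads over the last 500 bases of each gene, and whether strand was used is not given in the sources used here. In the current annotation, this window of SQSTM1 overlaps MRNIP on the opposite strand over all 500 bases, that of GLA overlaps RPL36A over 500 bases, and those of CTSA (with PLTP), ATP6V1D (with PALS1) and CTSZ (with NELFCD) overlap over 329, 98 and 93 bases. MRNIP had a median count of 138 against 5565 for SQSTM1, whereas RPL36A had 9800 against 627 for GLA. The medians of PLTP, PALS1 and NELFCD were 196, 190 and 331, against 1508, 506 and 2276 for CTSA, ATP6V1D and CTSZ. The window of MCOLN1 overlaps the gene model ENSG00000268614, which had a median count of 0, over 169 bases and PNPLA6 over 6 bases, both on the same strand. The ATP6V0C window lies wholly within that of another gene model on the same strand, so its lack of counts does not measure the transcript. GUSB and ATP6V1E1 have pseudogenes that took reads of their own, with median counts of up to 74 and 35.

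LPS changed 12 of the 35 tested members (34.3%) in at least 1 condition, in both directions, beside 26.9% of all genes. In WT, 6 of 35 members passed an edgeR adjusted p of 0.05, 2 higher and 4 lower, where 14.3% of all genes tested passed, 7.01% higher and 7.26% lower. In SCR, 9 passed, 4 higher and 5 lower, against 17.2% of all genes (8.64% higher and 8.56% lower). In KD 4 passed, 3 higher and 1 lower, against 11.5% (6.41% higher and 5.05% lower). The LPS and unstimulated libraries did not overlap in 15 members in WT, 14 in SCR and 11 in KD, beside 32.5%, 37.3% and 25.4% of all genes. The members' median log2 fold changes were -0.03 (WT), 0.00 (SCR) and 0.01 (KD), beside -0.03, -0.03 and 0.00 over all genes. SQSTM1 passed in all 3 conditions, 4 other members rose in at least 1 condition, 7 fell in at least 1, and 23 of the 35 passed in none.

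**Figure D2:**
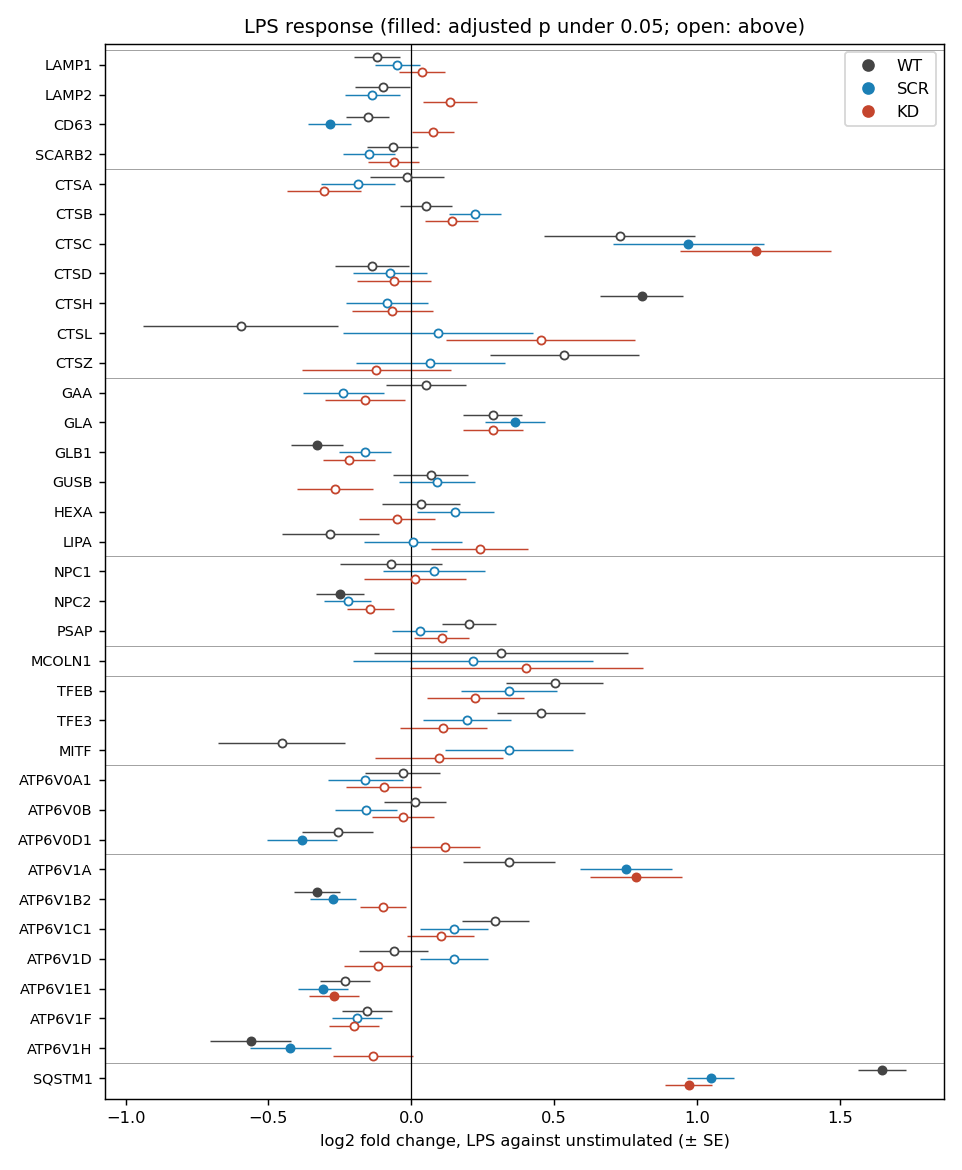
LPS response of each tested member, grouped by role. The horizontal axis is the log2 fold change of LPS against unstimulated with its SE. Grey, blue and red mark WT, SCR and KD, and filled points passed an edgeR adjusted p of 0.05. SQSTM1 lies farthest to the right in WT (1.65) and SCR (1.05). In KD, CTSC (1.21) lies to the right of SQSTM1 (0.97). Most other members lie near 0.

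SQSTM1 (ENSG00000161011, chromosome 5, 179233398 to 179265078) had the largest response in WT and SCR. In KD, CTSC had a larger log2 fold change (1.21). Its CPM in WT were 187, 179 and 220 without LPS and 599, 622 and 616 with it, a 3.13-fold rise (log2 fold change 1.65, SE 0.08, edgeR adjusted p 4.28e-12). In SCR, 309, 302 and 290 CPM became 637, 596 and 632 (2.07-fold; 1.05, SE 0.08, edgeR adjusted p 8.91e-09). In KD, 272, 304 and 268 CPM became 531, 567 and 554 (1.96-fold; 0.97, SE 0.08, edgeR adjusted p 3.51e-08). The groups with LPS lay close together, whereas without LPS the 3 WT libraries lay below the 6 that had received an siRNA. All 3 calls held under every alternative setting and without any single library.

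The smaller rise in the siRNA conditions was tested as an interaction. The SQSTM1 response in SCR was smaller than in WT by 0.60 on the log2 scale (interaction -0.60, SE 0.12, edgeR adjusted p 0.0283), and that in KD was smaller than in WT (-0.68, SE 0.12, edgeR adjusted p 0.0092). It was the one member past the threshold in each of these interactions, in which 0.234% of all genes (0.018% higher and 0.216% lower) and 0.36% (0.06% higher and 0.3% lower) passed. The SCR interaction passed in 1 of 12 fits with a library removed (that without WT unstimulated replicate 3), and in the other 11 it ran from -0.63 to -0.55 with edgeR adjusted p of 0.0508 to 0.134. The KD interaction passed in all 12. With an offset for the GC content of the counted sequence they were -0.46 (edgeR adjusted p 0.238) and -0.56 (edgeR adjusted p 0.0638). Between KD and SCR the response of SQSTM1 differed by -0.08 (SE 0.12, edgeR adjusted p 0.896). In that interaction 0 members passed in the fit reported here, nor did any gene (0%), with 2 members, CD63 and ATP6V0D1, at an unadjusted p under 0.05. DESeq2 gave 0 members there, where 0.018% of all genes passed on all libraries.

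Of the 7 cathepsins, CTSH rose in WT and CTSC in SCR and KD, a share of 14.3% in each condition, near that of all genes. CTSH, which lies on chromosome 15 (79213400 to 79241916), rose in WT, from 14.2, 21.7 and 19.5 CPM to 32.6, 30.7 and 33.1 CPM (log2 fold change 0.81 with SE 0.15, edgeR adjusted p 4.55e-04). In SCR it went from 35.2, 29.5 and 33.2 CPM to 30.0, 30.7 and 31.7 CPM (-0.09, SE 0.14, edgeR adjusted p 0.738), and in KD from 33.4, 40.4 and 32.3 CPM to 38.9, 30.5 and 32.01 CPM (-0.07, SE 0.14, edgeR adjusted p 0.812). The 3 unstimulated WT libraries were the lowest of the 18. The interactions against WT, -0.89 in SCR and -0.87 in KD, missed the threshold (edgeR adjusted p 0.0888 and 0.0687).

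CTSC, the dipeptidyl peptidase that activates granule serine proteases, lies on chromosome 11 (87998237 to 88092852) and rose in SCR, from 50.6, 51.2 and 54.4 CPM to 105, 123 and 77.6 CPM (log2 fold change 0.97 with SE 0.26, edgeR adjusted p 0.0139). In KD it rose from 89.8, 38.3 and 38.0 CPM to 119, 146 and 120 CPM (1.21, SE 0.26, edgeR adjusted p 0.00438), and in WT it went from 68.6, 43.5 and 36.3 CPM to 86.8, 93.1 and 66.2 CPM (0.73, SE 0.26, edgeR adjusted p 0.0714). The first unstimulated library of KD and that of WT were each the highest of their group. The call in SCR was lost without unstimulated replicate 1 (0.95, edgeR adjusted p 0.0569) and without LPS replicate 5 (0.81, edgeR adjusted p 0.068), whereas that in KD held without each library and was 1.75 without unstimulated replicate 1 (edgeR adjusted p 6.51e-06). The other cathepsins, CTSA, CTSB, CTSD, CTSL and CTSZ, passed in none of the 3 responses, and their log2 fold changes ran from -0.60 (CTSL in WT, edgeR adjusted p 0.276) to 0.54 (CTSZ in WT, edgeR adjusted p 0.196).

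**Figure D3:**
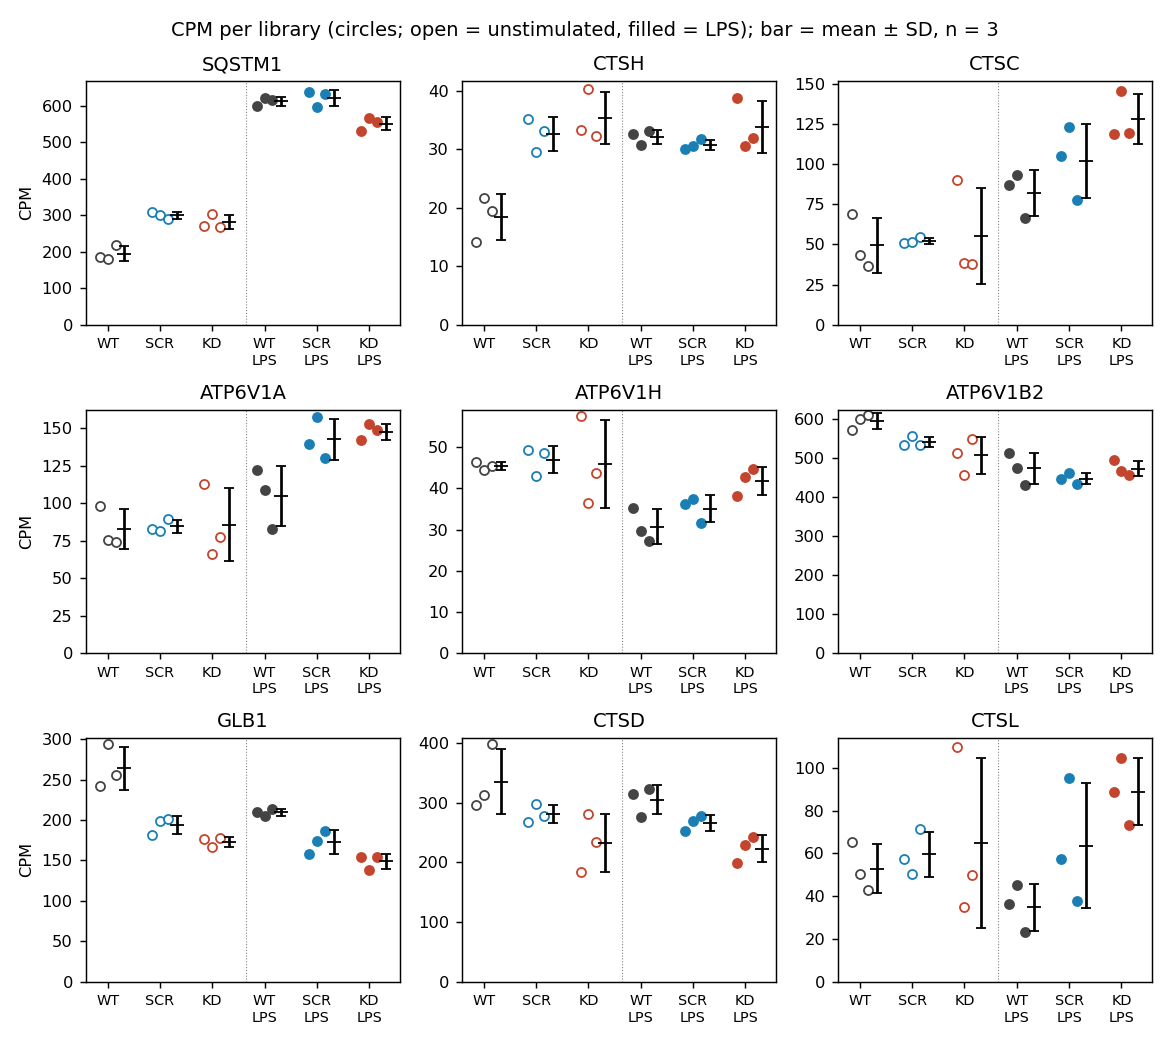
CPM of 9 members in each library. The vertical axes are TMM-scaled CPM from 0, open circles are unstimulated and filled circles LPS libraries of WT (grey), SCR (blue) and KD (red), and bars give the mean ± SD of 3; the SQSTM1 groups with LPS lie between 531 and 637 CPM, CTSH is low in unstimulated WT alone, and KD replicate 1 without LPS stands above the other 2 in CTSC, CTSL, ATP6V1A and ATP6V1H.

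The glycosidases and the lipid transfer proteins moved little. GLB1 fell in WT from 242, 294 and 256 CPM to 210, 205 and 213 CPM (log2 fold change -0.33 with SE 0.09, edgeR adjusted p 0.0158). The call was lost without unstimulated replicate 2 (-0.23, edgeR adjusted p 0.135) and without LPS replicate 5 (-0.32, edgeR adjusted p 0.0612). GLA, the alpha-galactosidase whose window is shared with RPL36A, rose in SCR (0.36, SE 0.10, edgeR adjusted p 0.0199), with 0.28 in WT and 0.29 in KD (edgeR adjusted p 0.0774 and 0.0846), and the call in SCR was lost without unstimulated replicate 2 or 3 or LPS replicate 6 (0.32 to 0.33, edgeR adjusted p 0.0753 to 0.0851). NPC2, which hands cholesterol to NPC1, fell in WT (-0.25, SE 0.08, edgeR adjusted p 0.0477), a call that was lost without unstimulated replicates 2 or 3 or LPS replicates 5 or 6 (-0.26 to -0.19, edgeR adjusted p 0.1 to 0.21) and under 5 of 7 other settings. GAA, GUSB, HEXA, the acid lipase LIPA, NPC1 and PSAP passed in no response.

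Of the 4 lysosomal membrane proteins, CD63 fell in SCR, from 3310, 2963 and 2994 CPM to 2267, 2827 and 2508 CPM (log2 fold change -0.29 with SE 0.08, edgeR adjusted p 0.0107). The call was lost without unstimulated replicate 1 (-0.23, edgeR adjusted p 0.0646) and without LPS replicate 4 (-0.21, edgeR adjusted p 0.0835). LAMP1, LAMP2 and SCARB2 passed in no response, with log2 fold changes between -0.15 and 0.14.

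The V-ATPase subunits did not move as one. Of the 10 tested, 2 fell in WT, 1 rose and 4 fell in SCR, and 1 rose and 1 fell in KD, with medians of -0.11, -0.18 and -0.10. Over all genes, 7.26% fell and 7.01% rose in WT, 8.56% and 8.64% in SCR, and 5.05% and 6.41% in KD. The subunit that rose was ATP6V1A, the catalytic A subunit of V1, on chromosome 3 (113465617 to 113530903). It went from 82.7, 81.7 and 89.9 CPM to 140, 158 and 131 CPM in SCR (log2 fold change 0.75 with SE 0.16, edgeR adjusted p 0.00251). In KD it went from 113, 66.2 and 77.8 CPM to 142, 153 and 149 CPM (0.79, SE 0.16, edgeR adjusted p 0.00246), and in WT from 97.9, 75.7 and 74.5 CPM to 122, 109 and 83.0 CPM (0.34, SE 0.16, edgeR adjusted p 0.179). The SCR and KD groups did not overlap, the WT groups did, and both calls held under every alternative and without any single library. The interactions against WT, 0.41 in SCR and 0.45 in KD, did not pass (edgeR adjusted p 0.554 and 0.353).

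Other V1 subunits fell. ATP6V1H, the regulatory H subunit, went from 46.4, 44.4 and 45.4 CPM to 35.3, 29.7 and 27.2 CPM in WT (log2 fold change -0.56 with SE 0.14, edgeR adjusted p 0.00925). In SCR it went from 49.2, 43.1 and 48.7 CPM to 36.3, 37.5 and 31.5 CPM (-0.42, SE 0.14, edgeR adjusted p 0.043), and in KD from 57.6, 36.4 and 43.9 CPM to 38.1, 42.7 and 44.7 CPM (-0.14, SE 0.14, edgeR adjusted p 0.578). ATP6V1B2, the B subunit that pairs with A around the catalytic site, fell in WT from 571, 600 and 610 CPM to 512, 474 and 431 CPM (-0.33, SE 0.08, edgeR adjusted p 0.00761). In SCR ATP6V1B2 fell by 0.28 (SE 0.08, edgeR adjusted p 0.0221), and in KD the value was -0.10 (SE 0.08, edgeR adjusted p 0.474).

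ATP6V1E1, part of the peripheral stalk, fell in SCR from 256, 204 and 226 CPM to 187, 179 and 189 CPM (log2 fold change -0.31 with SE 0.09, edgeR adjusted p 0.0179). It fell in KD from 213, 229 and 215 CPM to 184, 168 and 192 CPM (-0.27, SE 0.09, edgeR adjusted p 0.0473), and in WT the value was -0.23 (edgeR adjusted p 0.0855). In V0, ATP6V0D1 fell in SCR (-0.38, SE 0.12, edgeR adjusted p 0.0374), with -0.26 in WT and 0.12 in KD. These falls were less stable than the rise of ATP6V1A. In WT, the calls of ATP6V1H and ATP6V1B2 were lost without LPS replicate 6 (-0.48 and -0.27, edgeR adjusted p 0.0571 and 0.0567). In SCR, ATP6V1H was lost without any library but unstimulated replicate 2 (-0.48 to -0.35, edgeR adjusted p 0.0567 to 0.166), ATP6V0D1 without any but unstimulated replicate 3 (-0.42 to -0.28, 0.0628 to 0.191), ATP6V1E1 without unstimulated replicates 1 or 3 or LPS replicates 4 or 5 (-0.31 to -0.22, 0.0513 to 0.124), and ATP6V1B2 without unstimulated replicates 2 or 3 or LPS replicates 4 or 6 (-0.28 to -0.25, 0.0537 to 0.0832). In KD, ATP6V1E1 was lost without any library but unstimulated replicate 1 (-0.31 to -0.23, edgeR adjusted p 0.0568 to 0.19), with no filter on low counts and in both fits of the libraries of the comparison alone (-0.28 in each, adjusted p 0.131 to 0.148 by edgeR or DESeq2).

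None of the MiT/TFE factors passed in an LPS response in the fit reported here, though some did under other settings. TFEB in WT went from 12.8, 17.98 and 19.1 CPM to 21.3, 26.2 and 22.9 CPM (log2 fold change 0.50 with SE 0.17, edgeR adjusted p 0.0525), and TFE3 from 51.1, 72.4 and 54.3 CPM to 85.8, 74.6 and 82.4 CPM (0.45, SE 0.15, edgeR adjusted p 0.0521). In neither gene did the WT groups overlap. TFE3 passed in WT in 6 of 7 alternative settings (adjusted p 0.0137 to 0.102 by edgeR or DESeq2), all but scaling by total counts, and TFEB in 2 of 7 (0.0314 to 0.0935), but each passed in only 1 of 6 fits with a library removed. In SCR the values were 0.34 for TFEB and 0.19 for TFE3 (edgeR adjusted p 0.181 and 0.434; TFEB 0.50 and 0.0247 with the GC offset), and in KD 0.22 and 0.11 (0.429 and 0.692). MITF was -0.45 in WT, 0.34 in SCR and 0.10 in KD (edgeR adjusted p 0.199, 0.325 and 0.827), on 51 to 201 counts per library. Of the 12 tested members with CACGTG in the promoter, 0 rose in any response and 1, 3 and 0 fell in WT, SCR and KD, with medians between -0.11 and 0.00, and of the 23 without it 2, 4 and 3 rose and 3, 2 and 1 fell. Over all genes, 7.01%, 8.64% and 6.41% rose and 7.26%, 8.56% and 5.05% fell. The difference between these sets of members was not tested.

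The split of the WT calls changed with an offset for GC content. Members had a median GC content of 46% in the counted sequence, against 43% over all genes tested. SQSTM1 had 58% and ATP6V1A 31.8%. Over genes, the Spearman correlation of LPS fold change with GC was 0.05 in WT, -0.16 in SCR and -0.19 in KD. For the interactions it was -0.23 (SCR against WT), -0.22 (KD against WT) and -0.03 (KD against SCR). The source of this trend was not tested. With an offset per library for GC, 11 members passed in WT, 8 higher and 3 lower, in place of 2 and 4, where 15.2% of all genes passed. Those added on the higher side were ATP6V1A, TFEB, TFE3, GLA, ATP6V1C1 and CTSC, NPC2 dropped out, and 5 members passed in both fits. In SCR 9 members passed with the offset, 7 of them shared, and in KD the same 4 passed, beside 17.6% and 11.9% of all genes.

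Without LPS, 3 members differed between SCR and WT, 2 higher and 1 lower, where 3.23% of all genes passed (1.78% higher and 1.45% lower). The groups did not overlap in 7 members and in 22.6% of all genes. SQSTM1 was higher in SCR, at 309, 302 and 290 CPM against 187, 179 and 220 CPM (log2 fold change 0.62 with SE 0.08, edgeR adjusted p 1.93e-04). CTSH was higher, at 35.2, 29.5 and 33.2 CPM against 14.2, 21.7 and 19.5 CPM (0.83, SE 0.14, edgeR adjusted p 0.00281), and GLB1 lower, at 181, 199 and 201 CPM against 242, 294 and 256 CPM (-0.45, SE 0.09, edgeR adjusted p 0.00815). In all 3 genes the groups did not overlap. The call of GLB1 was lost without SCR replicate 1 (-0.40, edgeR adjusted p 0.0566). The median over the members was 0.02, and over all genes 0.01.

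KD against WT without LPS uses the same WT libraries, and 8 members passed, 3 higher and 5 lower, where 11.7% of all genes did (5.85% higher and 5.85% lower). The groups did not overlap in 10 members and in 24.3% of all genes. CTSH (0.94, SE 0.14, edgeR adjusted p 2.91e-04), GLB1 (-0.61, SE 0.09, edgeR adjusted p 2.34e-04) and SQSTM1 (0.53, SE 0.08, edgeR adjusted p 3.51e-04) passed here too. GLB1 in KD was 176, 166 and 178 CPM, below every WT and SCR library. These 3 calls held under every alternative and without each library.

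The remaining 5 were less stable. CTSD was 183, 281 and 234 CPM in KD against 295, 313 and 398 CPM in WT (log2 fold change -0.53 with SE 0.13, edgeR adjusted p 0.0111; -0.39 and 0.0929 without WT replicate 3). CD63 was 2542, 2592 and 2523 CPM against 3307, 2957 and 3248 CPM (-0.31, SE 0.08, edgeR adjusted p 0.00917; -0.27 and 0.0587 without WT replicate 1), and LAMP1 was 338, 385 and 397 CPM against 438, 482 and 470 CPM (-0.31, SE 0.08, edgeR adjusted p 0.0136). The call of LAMP1 was lost without WT replicate 2 or 3 or KD replicate 1 (-0.30 to -0.25, edgeR adjusted p 0.0538 to 0.0667). The cysteine protease CTSB (-0.29, SE 0.09, edgeR adjusted p 0.042) was lost without any library but KD replicate 2 (-0.30 to -0.24, 0.0729 to 0.151). CTSZ, a carboxypeptidase (0.82, SE 0.26, edgeR adjusted p 0.0455), was 162, 207 and 262 CPM in KD and 71.9, 195 and 92.4 CPM in WT, groups that overlap, and its call was lost without WT replicates 1 or 3 or KD replicates 2 or 3 (0.57 to 0.83, edgeR adjusted p 0.0672 to 0.199). All 5 of these were also lost when the 6 libraries were fitted alone, where 3 members passed and 1.81% of all genes by edgeR or 6.01% by DESeq2. Of the 12 members with CACGTG, 4 were lower and 0 higher (LAMP1, CD63, CTSB and CTSD, all among these 5), and of the 23 without it 1 was lower and 3 higher, beside 5.85% each way over all genes. The medians were 0.03 and -0.01, and the difference between these sets was not tested. The median over all members was 0.02 and over all genes -0.01.

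**Figure D4:**
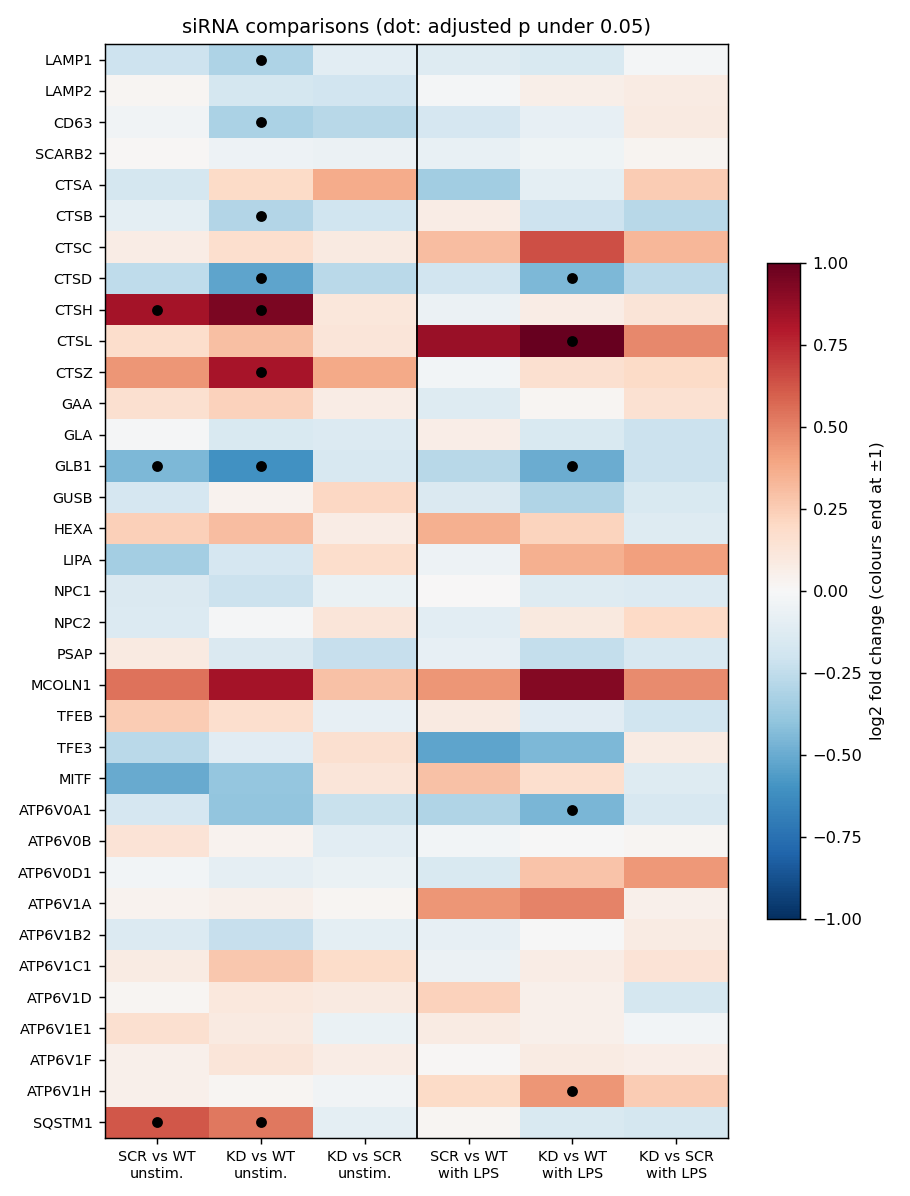
Differences of the tested members between conditions, without LPS (left 3 columns) and with LPS (right 3). Colours give the log2 fold change, red higher and blue lower in the condition named first, ending at ±1, and dots mark an edgeR adjusted p under 0.05; the dots lie in the columns against WT, and the columns of KD against SCR hold none.

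Against the scrambled control, which shares the transfection and an siRNA with KD, 0 members differed without LPS by edgeR. There 0.066% of all genes passed (0.024% higher and 0.042% lower). DESeq2 gave 0 members in both fits, where 1.68% of all genes passed on all libraries and 0.629% on the libraries of the comparison alone. The groups did not overlap in 6 members and in 15.1% of all genes. Before adjustment 4 members, CD63, CTSA, CTSB and PSAP, had p under 0.05. CD63 came first, at 2542, 2592 and 2523 CPM in KD against 3310, 2963 and 2994 CPM in SCR (log2 fold change -0.28 with SE 0.08, edgeR adjusted p 0.11). It was followed by CTSA, the carboxypeptidase that protects GLB1 (0.37, SE 0.13, edgeR adjusted p 0.215), and PSAP (-0.23, SE 0.10, edgeR adjusted p 0.306). The CD63 groups did not overlap, and all 3 KD libraries were the lowest of the 9 without LPS. SQSTM1 was -0.10, TFEB -0.09, TFE3 0.16 and MITF 0.12 (edgeR adjusted p 0.68 to 0.879). The log2 fold changes of all 35 members lay between -0.28 and 0.38, and the 95% interval lay within ±1 for 34 of 35 members and within ±0.5 for 27.

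With LPS, KD and SCR differed in 0 members in the edgeR fit over all 18 libraries, and no gene passed there (0%). In that fit 6 members, ATP6V0D1, CTSB, NPC2, LIPA, GLB1 and SQSTM1, had an unadjusted p under 0.05. Of all genes, 1.05% passed with edgeR on the libraries of the comparison alone and 0.51% with the replicate number as a block. The groups did not overlap in 9 members and in 21.5% of all genes. ATP6V0D1 was 48.7, 51.9 and 46.2 CPM in KD against 38.3, 33.4 and 37.1 CPM in SCR, without overlap (log2 fold change 0.43, SE 0.12, edgeR adjusted p 0.204). CTSB was 123, 124 and 135 CPM against 156, 152 and 156 CPM (-0.28, SE 0.09, edgeR adjusted p 0.245), and NPC2 was 261, 267 and 284 CPM against 232, 245 and 228 CPM (0.20, SE 0.08, edgeR adjusted p 0.345). DESeq2 on the 6 libraries alone, the form of test nearest to the study's, called ATP6V0D1 (adjusted p 0.0185), LIPA (0.41, adjusted p 0.0275) and CTSB (adjusted p 0.0316). In that fit 6.53% of all genes passed. The study's definition of a differentially expressed gene set a minimum fold change and a stricter adjusted p, limits that none of these genes met. SQSTM1 was -0.17, TFEB -0.20, TFE3 0.08 and MITF -0.13 (edgeR adjusted p 0.414 to 0.875). The 95% interval lay within ±1 for 33 of 35 members and within ±0.5 for 23.

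SCR against WT with LPS gave 0 members by edgeR, where 0.114% of all genes passed (0.024% higher and 0.0899% lower), and 8 members had an unadjusted p under 0.05. The groups did not overlap in 7 members and in 22.8% of all genes. TFE3 came first, at 46.9, 58.5 and 62.2 CPM in SCR against 85.8, 74.6 and 82.4 CPM in WT (log2 fold change -0.53 with SE 0.15, edgeR adjusted p 0.175), and then GLB1 (-0.28, SE 0.09, edgeR adjusted p 0.213) and ATP6V1A (0.44, SE 0.16, edgeR adjusted p 0.246). DESeq2 on the 6 libraries alone called TFE3 (adjusted p 0.00474), ATP6V1A (adjusted p 0.0308) and CTSA (-0.36, adjusted p 0.0386), in a fit where 4.93% of all genes passed. The TFE3 groups did not overlap, nor did those of ATP6V1A.

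KD against WT with LPS, which shares these WT libraries, gave 5 members, 2 higher and 3 lower, although TRAFD1 did not pass there, where 10.8% of all genes passed (6.29% higher and 4.55% lower). The groups did not overlap in 19 members and in 35% of all genes. GLB1 was again lower, at 154, 138 and 154 CPM in KD against 210, 205 and 213 CPM in WT (log2 fold change -0.49 with SE 0.09, edgeR adjusted p 0.00297), and this call held under every alternative and without each library. CTSL, a cysteine protease, was higher, at 88.5, 105 and 73.3 CPM against 36.3, 45.0 and 23.0 CPM (1.35, SE 0.34, edgeR adjusted p 0.0163). In SCR it spread from 37.7 to 95.2 CPM, reaching into the ranges of both. CTSD was lower (-0.45, SE 0.13, edgeR adjusted p 0.03), as was ATP6V0A1, a V0 subunit that anchors the pump's stator (-0.46, SE 0.13, edgeR adjusted p 0.0302), and ATP6V1H was higher (0.45, SE 0.14, edgeR adjusted p 0.0488).

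Apart from GLB1 these calls were lost on leaving out any of several libraries, although CTSL, CTSD and ATP6V0A1 passed in 9 of 9 alternative settings. CTSL was lost without WT replicate 6 (1.13, edgeR adjusted p 0.108) and without KD replicate 5 (1.20, edgeR adjusted p 0.0671). CTSD and ATP6V0A1 were lost without WT replicates 4 or 6 or KD replicates 4 or 5 (-0.48 to -0.38 for CTSD and -0.45 to -0.41 for ATP6V0A1, edgeR adjusted p 0.0826 to 0.142), and ATP6V1H without any library but WT replicate 4 (0.37 to 0.51, edgeR adjusted p 0.0591 to 0.221). With RLE size factors, total counts or the GC offset ATP6V1H was 0.38 to 0.42 (edgeR adjusted p 0.0505 to 0.0543). The count of 5 fell to 1 without WT replicate 6 and without KD replicate 5, and to 2 without KD replicate 4. The share of all genes in these fits is not given here, so the falls cannot be read as particular to the members. The median over the members was 0.02 and over all genes 0.00.

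Over all 12 comparisons, 18 of the 35 tested members (51.4%) passed at least once, beside 38.2% of all genes tested, and 17 never did. SQSTM1 passed in 7 comparisons, GLB1 in 4, and CTSH and ATP6V1H in 3 each. The members that never passed included LAMP2, SCARB2, GAA, GUSB, HEXA, LIPA, NPC1, PSAP, MCOLN1 and all 3 MiT/TFE factors. KD replicate 1 without LPS stood apart from replicates 2 and 3 in CTSC (89.8 against 38.3 and 38.0 CPM), CTSL (109.6, 34.8 and 49.99 CPM), ATP6V1A (113, 66.2 and 77.8 CPM) and LIPA (55.2, 30.5 and 38.6 CPM). Without it the LPS response in KD had 6 members past the threshold, 5 higher and 1 lower, where 19% of all genes passed. The interaction of KD against WT then had 7 members, where 7.91% of all genes passed, and KD against WT without LPS had 6, where 11.6% did.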

How the data were processed

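THP-1 RNA was profiled in 18 QuantSeq 3′ libraries of 6 groups. The authors removed low-quality reads, adaptors and poly-A reads, aligned to GRCh37 with HISAT and, per the study's methods, counted reads with featureCounts over the last 500 bases of each gene; the deposited values are raw counts per Ensembl gene, not normalized. Symbols came from GENCODE v44lift37 (55665 of 63677 identifiers), and 0 columns were left out.

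Genes were filtered with filterByExpr by group (16678 left), scaled by TMM and fitted over all 18 libraries with edgeR 4.0.16 (quasi-likelihood F test) in R 4.3.3, and p-values were adjusted by Benjamini-Hochberg over all genes tested (threshold 0.05). SE is |log2 fold change| over the root of F, and the common biological coefficient of variation was 0.17. Intervals are 95% intervals of the fitted fold change.

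Alternatives were RLE or total-count scaling, DESeq2 1.42.0 (on all libraries, or on those of a comparison), no filter, a GC offset (loess span 0.3), the libraries of a comparison alone, the replicate number as a block, and each library left out.

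The members, the other pathway genes and the marker lists were chosen with earlier results of these data known. Named are members past the threshold (up to 12 per comparison), the 3 with the smallest p where fewer than 3 passed, TFEB, TFE3, MITF and SQSTM1 in the LPS responses and in KD against SCR, and up to 3 other pathway genes per list and direction. The promoter rule (CACGTG and the same call in 2 LPS responses, off chromosome 8) left no member, so promoters were picked after their values were seen.

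Whether replicate numbers pair libraries was checked by correlating deviations from group means. Numbers 4, 5 and 6 paired SCR with WT under LPS (r 0.261, 0.163 and 0.253), where the block also gave 0 members; no other comparison met the criterion of r above 0.1 in every pair.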

Additional observations from a re-analysis of the deposited data

Results flagged for a closer look

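The LPS response of SQSTM1 was smaller in the conditions that had received an siRNA than in WT, by a test of the difference itself. The interaction was -0.60 in SCR against WT (SE 0.12, edgeR adjusted p 0.0283) and -0.68 in KD against WT (SE 0.12, edgeR adjusted p 0.0092). Both use the same 6 WT libraries, which held 187, 179 and 220 CPM without LPS, below all 6 siRNA libraries without LPS, and 599, 622 and 616 CPM with LPS. Both fell short of the threshold with the GC offset, and the first in 11 of 12 fits that left out a library. TNF, one of the genes that checked the LPS labels, had interactions of -1.42 (SE 0.21, edgeR adjusted p 0.0021) and -1.76 (SE 0.21, edgeR adjusted p 1.01e-04), and was also lower without LPS in WT than in SCR or KD. IL1B, the other of them, had interactions of the opposite sign that did not pass, 0.22 (SE 0.38, edgeR adjusted p 0.87) and 0.88 (SE 0.40, edgeR adjusted p 0.3).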

How the results depend on the processing

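Scaling by RLE or by total counts kept every count of members within 1.5 times of the reported one and moved the median of all genes by at most 0.0617. DESeq2 on all libraries gave 2 members in each interaction against WT (1 reported in each) and 8 other pathway genes in SCR against WT without LPS (3 reported). Of all genes, 0.51% passed there in the SCR interaction, 2.98% in the KD interaction and 6.45% in SCR against WT without LPS. With no filter on low counts, members past the threshold were 3 in SCR against WT with LPS and 1 in KD against SCR with LPS (0 reported in each), 8 in KD against WT with LPS (5), 5 for LPS in SCR (9), 3 and 4 in the interactions of SCR and KD against WT (1 each), and 1 other pathway gene in SCR against WT without LPS (3). In the order given, 1.74%, 1.25%, 6.24%, 8.59%, 0.707%, 2.14% and 2.25% of all genes passed without the filter. The GC offset gave 11 members for LPS in WT (6) and 0 in each interaction against WT (1). Of all genes, 15.2% passed with it for LPS in WT, 0.252% in the SCR interaction and 0.414% in the KD interaction. In the libraries of a comparison alone, edgeR and DESeq2 each gave 3 members in KD against WT without LPS (8) and 10 with LPS (5), and for other pathway genes 2 and 7 (22 reported), 34 and 30 (18 reported) and, for LPS in KD, 3 and 5 (12 reported). The share of all genes changed as well. In KD against WT it was 1.81% by edgeR and 6.01% by DESeq2 without LPS (11.7% reported). With LPS it was 21.6% and 19.6% (10.8% reported), and for LPS in KD 5.58% by edgeR (11.5% reported). Fitted alone, SCR against WT without LPS gave 0 other pathway genes by edgeR, where 2.6% of all genes passed. DESeq2 fitted alone gave 3 members in SCR against WT with LPS (4.93% of all genes), 3 in KD against SCR with LPS (6.53%), and 2 in each interaction against WT.

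The replicate block gave 8 members in KD against WT with LPS (5 reported), 3 in the interaction of KD against WT (1) and 7 other pathway genes in SCR against WT without LPS (3), and kept the other counts within 1.5 times. Of all genes, 15.4%, 3.28% and 5.6% passed in these with the block (10.8%, 0.36% and 3.23% reported). Block and GC offset together gave 8, 3 and 6 in these (16.1%, 2.84% and 6.3% of all genes), 0 members in the interaction of SCR against WT (0.3%), and 29 other pathway genes in KD against WT with LPS (18). In these comparisons the samples share only a number. No paired analysis was possible for the LPS responses because the numbers 1 to 3 and 4 to 6 are not shared.

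Leaving out 1 library gave, for members, 2 to 4 in SCR against WT without LPS, 4 (WT replicate 3) to 8 in KD against WT without LPS, 1 to 4 with LPS, 3 (LPS replicate 6) to 7 for LPS in WT, 4 to 6 in SCR (5 libraries below 6: unstimulated 1 and 3, LPS 4, 5 and 6), 3 to 6 in KD, 0 to 1 in the interaction of SCR against WT, and 1 to 7 (KD unstimulated replicate 1) in that of KD against WT. For other pathway genes the ranges were 0 to 1, 10 (WT replicate 3) to 24 and 4 (WT replicate 6) to 14 in SCR and KD against WT without LPS and KD against WT with LPS, and 12 to 17, 8 (LPS replicates 4 and 5) to 15 and 3 (LPS replicate 4) to 23 (unstimulated replicate 1) for LPS in WT, SCR and KD. Without KD unstimulated replicate 1, 7.91% of all genes passed in the interaction of KD against WT and 19% for LPS in KD. The other counts of this paragraph stand without the share of all genes, so their ranges cannot be read as particular to these genes. The values that changed sign belonged to TFE3 and MITF, which were not called. TFE3 ran from -0.0071 to 0.33 for LPS in KD, from -0.053 to 0.28 in KD against SCR without LPS and from -0.0273 to 0.16 with LPS; MITF ran from -0.0897 to 0.24, from -0.0254 to 0.28 and from -0.31 to 0.0584. The causes were not tested. With the GC offset ATP6V1B2 (-0.21, edgeR adjusted p 0.0827) and ATP6V0D1 (-0.24, edgeR adjusted p 0.197) were lost for LPS in SCR, and depth limits MCOLN1 and MITF most.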

Other observations

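A further 106 genes of the lysosome and autophagy pathway were listed beside the members, and 103 were tested. With LPS more of them fell than rose: 13 fell and 3 rose in WT, 13 and 4 in SCR, and 9 and 3 in KD. The medians were -0.13, -0.10 and -0.09, beside -0.03, -0.03 and 0.00 over all genes, of which 14.3%, 17.2% and 11.5% passed. Of all genes, 7.26%, 8.56% and 5.05% fell and 7.01%, 8.64% and 6.41% rose in WT, SCR and KD. CLCN7, the chloride-proton exchanger of the lysosomal membrane, fell in WT (log2 fold change -0.97), SCR (-0.98) and KD (-1.12), with SE of 0.14 in each and edgeR adjusted p of 4.86e-05, 6.3e-05 and 1.29e-05. ULK1, the kinase that starts autophagy, fell by 1.08, 0.82 and 0.95 on the log2 scale (SE 0.13 in each). OPTN, an autophagy receptor like SQSTM1, rose in all 3 (1.17, 0.57 and 0.60, SE 0.13 in each), whereas the receptor CALCOCO2 fell in all 3 (-0.55, -0.45 and -0.29, SE 0.10, 0.10 and 0.10). The receptor TAX1BP1 fell in WT (-0.42) and KD (-0.29), and ATG7, an enzyme of autophagosome formation, rose in WT (0.86) and SCR (0.55). Among 31 other acid hydrolases 4, 6 and 3 fell in WT, SCR and KD and 0 rose, where 7.26%, 8.56% and 5.05% of all genes fell and 7.01%, 8.64% and 6.41% rose. The falls were led by the phospholipase PLA2G15 in WT (-0.80, SE 0.14), the peptidase TPP1 in SCR (-0.52, SE 0.10) and AGA in KD (-0.36, SE 0.10).

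Between conditions, 22 of these genes differed in KD against WT without LPS, 6 higher and 16 lower, 18 with LPS, 10 higher and 8 lower, and 3 in SCR against WT without LPS, 1 higher and 2 lower, beside 11.7%, 10.8% and 3.23% of all genes. By direction, 5.85%, 6.29% and 1.78% of all genes were higher and 5.85%, 4.55% and 1.45% lower. In SCR against WT with LPS 1 passed, AP1B1 (-0.49, SE 0.09, edgeR adjusted p 0.0292), beside 0.114%. In KD against SCR 0 passed by edgeR in either state, with 20 and 13 at an unadjusted p under 0.05. AP1B1 and AP1G1, subunits of the adaptor that sorts cargo at the trans-Golgi network, were lower in KD than in WT without LPS (-0.54 and -0.48) and with LPS (-0.61 and -0.54), comparisons that share no library; they were named after their values were seen.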
